A study of Mus musculus with 124 samples.

Results

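The cytosolic ribosomal protein genes encode the proteins that, with the ribosomal RNAs, build the large (Rpl) and small (Rps) subunits of the ribosome outside mitochondria. They were taken by gene name: an Rpl or Rps stem, a number and at most a short suffix, with annotated pseudogenes left out. This gave 76 genes of 17108 named genes in cortex (45 large and 31 small subunit genes) and 75 of 13338 in liver (44 and 31). All 75 liver genes were also measured in cortex, and Rpl3l was measured in cortex only. The pattern matched 78 cortex and 77 liver entries, of which 2 in each table, Rps3a2 and Rps4l, are annotated as pseudogenes. Rpl10l, Rpl24 and Rpl39l were not analysed here.

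RNA was sequenced from the cortex and liver of 62 mice aged 11 to 12 weeks and kept under 12 h of light a day, with 62 libraries a tissue. In 36 of them sleep was prevented by gentle handling during the first 6 h of a light phase (SD), and 26 were undisturbed controls. The 12 SD groups, of 3 mice each, are named by hours since the light onset of the day before: T27 fell within the deprivation, T30 at its end, and T36, T42, T48 and T54 within the next 24 h. Later groups were T60 and T66, then T72 and T78, and T192 and T198, at 162 and 168 h after its end. Control groups are named by zeitgeber time (ZT), the hours since lights on: ZT0 (8 mice), ZT3 (3), ZT6 (5), ZT12 (5) and ZT18 (5). The ZT0 group joins 4 mice labelled T0 and 4 labelled T24. Each SD group was set against the control of the same time of day, so several SD groups share a control. The labels also give a batch: the T60, T66, T192 and T198 mice were all in batch 2, the other SD mice and ZT3 were all in batch 1, and the remaining control groups held both. The strain is not given in the labels. The protocol in the labels describes a stranded library of polyadenylated RNA, written for liver.

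Cells make ribosomal proteins in matched amounts, largely through translation. Their mRNAs begin with a cytosine followed by a run of pyrimidines, the 5′ terminal oligopyrimidine (TOP) motif, through which the mTORC1 kinase and the RNA-binding protein Larp1 set how many of them are loaded on ribosomes and how long they last. In mouse liver, ribosome production follows the daily cycle of feeding and fasting. In brain, protein synthesis has long been studied in relation to sleep.

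The start sites below are shown because the TOP motif lies at the very start of an mRNA, here as RefSeq places it. Each line has 10 bases before the start site and 20 from it on, 5′ to 3′ on the gene's strand (RefSeq, GRCm38.p6). Capitals mark a run of at least 6 C or T. The genes are those with large daily differences in liver, described further on.
Rpl13a (chr7:45128726-45128755, minus strand): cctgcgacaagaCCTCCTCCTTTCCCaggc
Rpl12 (chr2:32961702-32961731, plus strand): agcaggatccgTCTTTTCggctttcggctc
Rpl18 (chr7:45718061-45718090, plus strand): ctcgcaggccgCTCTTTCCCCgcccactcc
Rpl35 (chr2:39005112-39005141, minus strand): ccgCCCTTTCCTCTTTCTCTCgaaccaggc
Rps21 (chr2:180257369-180257398, plus strand): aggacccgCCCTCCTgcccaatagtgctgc
Rps9 (chr7:3704031-3704060, plus strand): cttgTCTCTCTTTgtctcgggcctgagttc
Rps6 (chr4:86857348-86857377, minus strand): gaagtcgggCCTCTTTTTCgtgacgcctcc
Rpl7l1 (chr17:46782637-46782666, minus strand): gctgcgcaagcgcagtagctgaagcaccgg
Rps28 (chr17:33824543-33824572, minus strand): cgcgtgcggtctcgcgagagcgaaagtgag
Rpl27 (chr11:101442235-101442264, plus strand): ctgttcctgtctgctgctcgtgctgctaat
Rpl7l1, Rps28 and Rpl27 had no such run in this window, which says only that the letters are not at this annotated start. A further annotated Rps21 start had none either.

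The RefSeq table held 57 of the 76 genes, with 69 starts, among 27025 genes. A run of at least 6 C or T, read on the gene's strand, lay in the window of 30 bases in 35 of the 57 (61.4%) and in 32.1% of all genes. In the 300 bases around the start (250 before, 50 after, both strands), the ETS-family motif of GABP (CCGGAAGT or ACTTCCGG) was in 11 of 57 (19.3%) against 4.31% of all genes. The YY1 motif (AAGATGGC or GCCATCTT) was in 6 (10.5%) against 3.19%, and the Sp1 motif (GGGCGG or CCGCCC) in 35 (61.4%) against 38.2%. The E-box bound by clock factors (CACGTG) was in 6 (10.5%) against 8.09%, and the TATA box (TATAAA or TTTATA) in 6 (10.5%) against 15.7%. None of these motifs contains another, and their matches were not checked for overlap. These matches are descriptions of letters, not of binding.

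Values are log2 CPM as deposited, the log2 of a gene's reads scaled for its library, and the total depth of each library is unknown. The CPM of a library did not add up to a fixed total. Their sums ran from 979200 to 1020000 in cortex libraries and from 919700 to 1070000 in liver libraries. Differences between libraries are therefore not differences at equal totals, and the part of these sums in them was not tested. The family took 0.511% to 0.608% of the CPM in a cortex library and 0.822% to 1.11% in a liver library. Per kilobase of annotated exons, joined over all transcripts of a gene, the median level was 5.08 log2 CPM in cortex and 5.89 in liver (2 tables normalised separately). This length is not that of a single transcript, so levels on this scale depend on which exons are annotated. On that scale Rps15 (7.71) and Rpl4 (7.39), a protein lining the exit tunnel, were highest in cortex, and Rpl4 (7.90) and Rps3a1 (7.60) in liver. Lowest were Rpl3l (−2.49, cortex only), Rps10 (−0.42 in cortex, −0.65 in liver) and Rpl13a (2.36 and 1.67). Of the 76 genes, 53 have processed pseudogenes named after them in the annotation, 283 in all and up to 24 for 1 gene. Exons of 24 overlap another gene on the same strand, among them Rps10 (a readthrough transcript with Nudt3) and Rpl13a (a small nucleolar RNA and 2 other genes), so reads of these low genes may be divided or lost and their levels are uncertain.

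Cortex and liver libraries carried the markers of their tissue. Cortex identity genes (6 of 6 measured) summed to 5484 to 6498 CPM in every cortex library, and liver identity genes (6 of 6) to 87257 to 125335 CPM in every liver library. In liver, sums over markers of other cells were smaller: 59.2 to 296 CPM for Kupffer cells (3 of 3), 165 to 294 CPM for blood (5 of 5) and 7.02 to 27.7 CPM for lymphocytes (3 of 4). Choroid plexus markers (3 of 4) ranged from 2.85 to 122 CPM among cortex libraries. In bulk tissue, fewer cells of a type and less RNA per cell cannot be told apart.

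In the liver of control mice the ribosomal protein genes had a shared daily pattern, with higher levels at ZT12, the end of the light phase, and at ZT18. Their mean level per library was 6.50 ± 0.07 log2 CPM at ZT0 (SD, n = 8), 6.57 ± 0.01 at ZT3 (n = 3), 6.47 ± 0.05 at ZT6 (n = 5), 6.68 ± 0.20 at ZT12 (n = 5) and 6.73 ± 0.13 at ZT18 (n = 5). The 5 libraries at ZT18 lay between 6.58 and 6.89 and the 5 at ZT6 between 6.42 and 6.56, so these groups did not overlap, while the ZT12 libraries spread from 6.49 to 6.96. By group mean, 57 of the 75 genes were highest at ZT18, 17 at ZT12 and 1, Rpl22l1, at ZT3. For 57 the lowest group was ZT6 and for 18 it was ZT0.

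**Figure D1:**
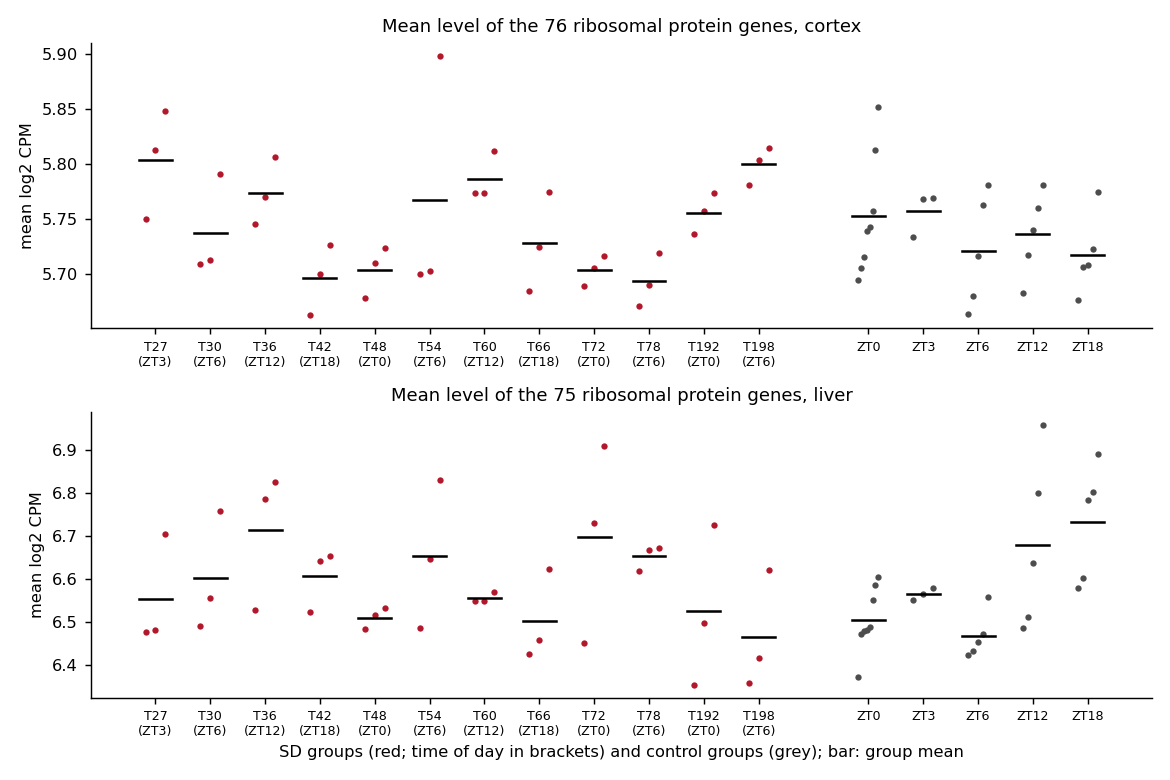
Mean log2 CPM over the ribosomal protein genes (vertical axis) in each library, with SD groups in red at the left and control groups in grey at the right; a dot is a library and a bar the group mean, and the vertical scales differ between tissues. In liver the 5 ZT18 controls (6.58 to 6.89) lie above the 5 ZT6 controls (6.42 to 6.56), while all cortex libraries lie between 5.66 and 5.90.

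Over the 5 control groups, 49 of 75 genes changed with time of day in liver at an adjusted p below 0.05 (limma F test, Benjamini-Hochberg over all named genes), where 52.0% of all liver genes passed. That share of the family, read alone, does not stand out from the background, and what the members had in common was direction. Genes of a library moved together: the family mean had a within-group SD of 0.13, against 0.15 for a typical single gene. A shared direction is therefore not 75 separate observations. At ZT18 against ZT6, 53 of 75 rose and none fell, where 15.9% of all genes were called higher. The median difference was 0.26 on the log2 scale over the 75 genes and 0.00 over all genes, and 74 of the 75 differences were positive, the exception being Rpl22 (−0.03). For 25 of the 75 every ZT18 library was above every ZT6 library (8.31% of all liver genes), and for none was it the reverse. At ZT12 against ZT0, 21 rose and none fell, where 16.0% of all genes were called higher, with a median of 0.16 and every ZT12 library above every ZT0 library for 2 genes (6.51% of all). Together, 64 of 75 were called in at least 1 of the 3 daily tests. The share of all liver genes called in at least 1 of them is not reported here, so this count has no background.

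The size of this pattern depended on libraries and on the settings of the fit. Shares of all liver genes called in these other fits are not reported here. A loss of calls particular to the family therefore cannot be told from a loss over all genes. With an unlabelled factor, found to have been removed from the liver values before deposit, as a covariate, 23 genes changed with time of day, 12 rose at ZT12 against ZT0 and 48 at ZT18 against ZT6. Without the ZT18 library T18N2 or T18N7, 25 or 28 genes were called at ZT18 against ZT6, and the count over all times of day was 25, 28 or 24 without T18N2, T18N4 or T18N7. For ZT12 against ZT0 it was 12 without J70N1, 7, 37, 35, 12 and 5 without T12N1, T12N2, T12N4, T12N5 and T12N6. In batch 1 alone (3 mice a group) the ZT18 minus ZT6 median was 0.28 with 5 genes called, and in batch 2 alone (2 mice a group) it was 0.25 with 9. Within batch 1 no gene passed at ZT12 against ZT0 in limma, and 4 had an unadjusted p below 0.05, with a median of 0.10.

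Levels of short and long transcripts also moved with the family in liver. A library's transcript length index, the median deviation of other genes in the shortest of 5 classes of transcript length minus that in the longest, ran from −0.05 to 0.23 at ZT18 (median 0.14) and from −0.12 to 0.01 at ZT6 (median −0.04). The ribosomal protein transcripts are short, with a median of 632 bases in liver. From the shortest to the longest class, the median ZT18 minus ZT6 differences were 0.02, 0.01, 0.00, −0.05 and −0.10. With the index as a covariate the median difference of the family was 0.08 and 4 genes were called (Rpl18, Rpl7l1, Rpl8 and Rps4x), while 15 were called at ZT12 against ZT0 and 13 over all times of day. Shares of all liver genes called with the index are not reported here. What part the index has in the family's difference was not tested. Liver identity markers summed to 109028 to 115447 CPM at ZT18 and 93280 to 110804 CPM at ZT6. Blood markers summed to 193 to 294 CPM at ZT18 and 184 to 207 CPM at ZT6, and Kupffer markers to 59.2 to 276 CPM at ZT18 and 116 to 296 CPM at ZT6. Their part was not tested either.

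**Figure D2:**
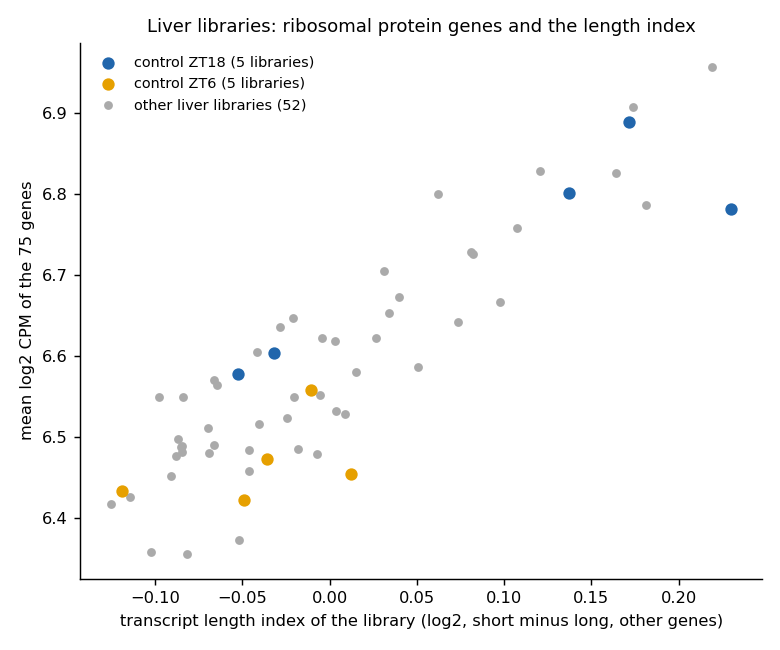
Mean log2 CPM of the 75 genes (vertical axis) against the transcript length index (horizontal axis, log2) in 62 liver libraries, with the 5 control libraries at ZT18 in blue, the 5 at ZT6 in orange and the other 52 in grey. The 3 ZT18 libraries with indices of 0.14 to 0.23 have family means of 6.78 to 6.89, and the other 2, at −0.05 and −0.03, have 6.58 and 6.60.

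Among single genes, the largest called difference between ZT18 and ZT6 in liver was that of Rpl13a, a large subunit protein also known, in human monocytes, from a complex that silences inflammatory mRNAs. It had 3.14, 2.86, 2.82, 2.93 and 3.15 log2 CPM at ZT18, against 2.12, 2.68, 2.59, 2.38 and 2.52 at ZT6. The groups did not overlap, and Rpl13a rose by 0.52 ± 0.15 on the log2 scale (standard error, adjusted p = 0.00529, limma), or 1.43-fold. Rpl12, part of the stalk base of the large subunit, had 7.61, 7.23, 7.61, 7.32 and 7.40 log2 CPM at ZT18, against 7.04, 6.89, 7.11, 6.97 and 7.05 at ZT6. All ZT18 values were again above those at ZT6 (0.42 ± 0.12, adjusted p = 0.00441). Rpl18 had 7.05, 6.66, 7.14, 6.69 and 6.97 log2 CPM at ZT18, against 6.46, 6.40, 6.61, 6.57 and 6.59 at ZT6 (0.38 ± 0.09, adjusted p = 0.00168, limma), with no overlap either. Rps21, Rpl35, Rps28 and Rpl27 also rose, by 0.36 to 0.37. Of these, Rpl27 (adjusted p = 0.0301) lost its call without T18N2, T18N4, T18N7 or T6N4 and Rps28 (0.0227) without T18N2, T18N7 or T6N4, with limma. Rpl7l1 (0.38), described further on, completes the 8 genes chosen by size, of which Rpl7l1, Rps28 and Rpl27 had no run of C or T at the printed start. Over the ribosomal protein genes in the RefSeq table, the median ZT18 minus ZT6 difference was 0.27 for the 35 with the run and 0.26 for the 21 without.

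At dusk the leading genes were others. Rps9, a protein of the small subunit's early assembly, had 7.62, 7.31, 7.27, 7.44 and 7.59 log2 CPM at ZT12 against 7.05 to 7.30 (median 7.09) at ZT0. The groups overlapped only at 7.27 to 7.30, and the rise was 0.32 ± 0.07 (adjusted p = 0.000488, limma), or 1.25-fold. Rps6, the protein phosphorylated by the S6 kinases downstream of mTORC1, had 6.99, 6.65, 6.60, 6.66 and 6.87 log2 CPM at ZT12 against 6.20 to 6.71 (median 6.46) at ZT0, overlapping groups (0.30 ± 0.06, adjusted p = 0.00022, limma). Rpl3, which reaches the peptidyl transferase centre, had 8.01, 7.94, 7.94, 7.99 and 8.21 log2 CPM at ZT12 against 7.49 to 7.85 (median 7.72) at ZT0, with no overlap (0.30 ± 0.07, adjusted p = 0.000496, limma). Rpl10a (0.29 ± 0.07, adjusted p = 0.00182) and Rps13 (0.28 ± 0.09, adjusted p = 0.013, limma) rose too. The last lost its call without T12N6 (adjusted p = 0.0628) or T12N1 (0.122). Rpl28 (0.29, adjusted p = 0.0485) and Rpl14 (0.28, adjusted p = 0.0403) each lost theirs in 8 of 13 fits that left out a library (limma).

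Both differences were called for 11 genes, ZT12 against ZT0 only for 10 and ZT18 against ZT6 only for 42. Among the 10 were Rpl3, Rpl4, Rpl5, Rpl6, Rpl10, Rps6 and Rps23. For Rpl3 the second difference was 0.04 (adjusted p = 0.73) and for Rps6 it was 0.13 (adjusted p = 0.179, limma), and whether the 2 differences of a gene were unequal was not tested. Rps19, mutated in Diamond-Blackfan anaemia, rose in both (0.22, adjusted p = 0.0409, and 0.34, adjusted p = 0.00572, limma). Rpl5, which with Rpl11 binds 5S rRNA and the p53 regulator Mdm2, rose at ZT12 against ZT0 (0.20, adjusted p = 0.0136), while Rpl11 passed neither test (0.15, adjusted p = 0.196, and 0.23, adjusted p = 0.064, limma). Rps27a, made as a fusion with ubiquitin, and Rpl41, the smallest of these proteins, rose at ZT18 against ZT6 (0.24 each, adjusted p = 0.0262 and 0.0319, limma). By subunit, 28 of 44 large and 25 of 31 small subunit genes rose at ZT18 against ZT6, with medians of 0.25 and 0.27. For ZT12 against ZT0 it was 12 of 44 and 9 of 31. Among the genes called in none of the daily tests were Rpl7, Rpl11, Rpl13, Rpl22, Rpl23, Rps10, Rps12 and Rps27.

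In the cortex of the same mice the family was nearly level over the day. Its mean was 5.75, 5.76, 5.72, 5.74 and 5.72 log2 CPM at ZT0, ZT3, ZT6, ZT12 and ZT18, and the median range of a gene's control means was 0.08, against 0.27 in liver. The typical within-group SD of a single gene was 0.07 in cortex and 0.15 in liver, so the smaller cortex range was read with smaller error. Of 76 genes, 2 changed with time of day (41.9% of all cortex genes), 1 fell at ZT12 against ZT0 (26.8%), and 1 rose and 1 fell at ZT18 against ZT6 (30.7%), each share being below the background. The group means were highest at ZT0 for 28 genes and at ZT3 for 28, and lowest at ZT18 for 32 and at ZT6 for 26.

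**Figure D3:**
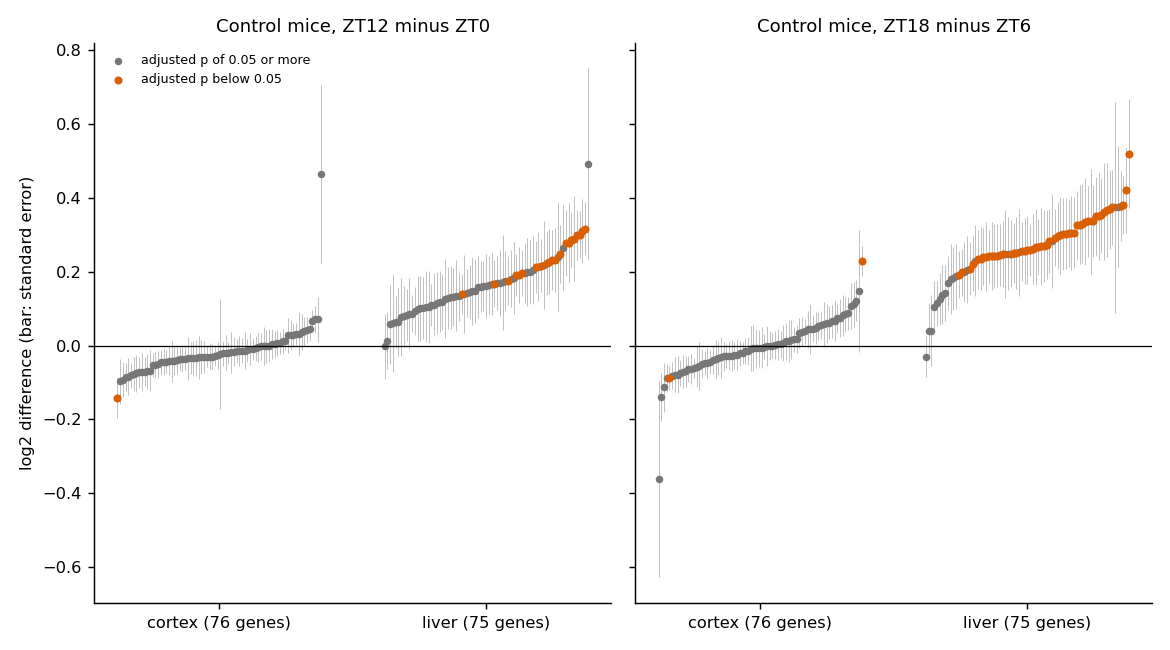
Log2 difference (vertical axis, bar: standard error) between control groups for each ribosomal protein gene, ranked within tissue, at ZT12 minus ZT0 on the left and ZT18 minus ZT6 on the right; orange marks an adjusted p below 0.05. In liver 21 and 53 of 75 genes are orange and above 0, and in cortex 1 and 2 of 76 are orange.

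Rpl7l1 was the ribosomal protein gene with the smallest p over the day in cortex. It is a paralog of Rpl7, and its yeast relative Rlp7 acts in nucleolar assembly of the large subunit rather than in finished ribosomes. In cortex it had 5.08, 5.13, 5.17, 5.06 and 5.05 log2 CPM at ZT18, against 4.78, 4.86, 4.90, 4.86 and 4.94 at ZT6. Every ZT18 library was above every ZT6 library (0.23 ± 0.04, adjusted p = 1.8e-05, limma), and the F test over all 5 times gave an adjusted p of 7.63e-05. In the liver of the same mice it had 5.98, 6.09, 6.01, 6.12 and 6.28 log2 CPM at ZT18, against 5.78, 5.70, 5.66, 5.67 and 5.77 at ZT6. Again no values overlapped (0.38 ± 0.08, adjusted p = 0.000159, limma). Leaving out any 1 library kept both calls. In liver the gene was called in all 8 alternative settings (0.33 to 0.46), and in cortex in 6 of 7, missing in batch 2 alone (adjusted p = 0.109, limma). Its gene lies at chr17:46773907-46782672 on the minus strand (GRCm38) and its exons overlap no other gene's.

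The other daily calls in cortex were small. Rpl13 had 6.18, 6.18 and 6.20 log2 CPM at ZT3 and 5.85, 6.11, 5.92, 6.16 and 5.79 at ZT6, and changed over the 5 times (adjusted p = 0.024, limma F test), a call lost without T6N2 (0.0818), T6N4 (0.0583) or J76N2 (0.0677). Without J76N1, 4 genes changed. Rpl22, an RNA-binding protein of the large subunit, had 5.85, 5.79, 5.87, 5.87 and 5.83 log2 CPM at ZT18, against 5.90, 5.91, 5.93, 5.95 and 5.94 at ZT6. The groups were apart by a small step (−0.09 ± 0.03, adjusted p = 0.0365, limma), and the call was lost in 6 of 10 fits that left out a library. Without T6N3, 4 genes were called at ZT18 against ZT6, without T6N4, J76N1, J76N2, T18N2 or T18N3 only 1, Rpl7l1. Rpl13a fell at ZT12 against ZT0 (−0.14 ± 0.06, adjusted p = 0.0485, limma), with overlapping libraries, 3.25 to 3.46 log2 CPM at ZT12 and 3.28 to 3.65 at ZT0. That call was lost in 10 of 13 such fits, at adjusted p of 0.0539 to 0.142, and without T0N3 2 genes were called. The Rpl13a call was also lost with log2(CPM + 1), and with libraries centred on their median, where Rpl3 was called instead.

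Differences between the tissues were then tested gene by gene. Of the 75 genes in both tables, 46 had a time-of-day pattern that differed between the tissues (limma F test on the difference, adjusted over 12194 shared genes, of which 48.6% passed), a share near the background. Smallest in p were Rps9 (adjusted p = 0.000627), Rps6 (0.00129), Rpl8 (0.00178), Rps4x (0.00261) and Rps3a1 (0.00334, limma). Rps9 averaged 6.30, 6.24, 6.25, 6.24 and 6.28 log2 CPM at ZT0, ZT3, ZT6, ZT12 and ZT18 in cortex, against 7.13, 7.20, 7.12, 7.44 and 7.35 in liver. Cortex was level within 0.06, and liver was higher at ZT12, the end of the light phase, and at ZT18. Rpl7l1 (adjusted p = 0.0691) and Rpl13a (0.056, limma) did not pass. Taking each mouse's cortex minus liver value, a pairing by mouse as a replicate block, left 30 of 75 genes.

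Sleep deprivation moved few of these genes in cortex, although the tissue as a whole changed. Over all SD times 4 of 76 genes changed (limma F test, 35.2% of all cortex genes): Rpl7l1 (adjusted p = 0.00192), Rpl10 (0.0267), Rpl26 (0.031) and Rpl19 (0.0448, limma). The count was 12 without the T54 library T54S4, 1 without J76S3 and 2 without T12N5, T36S1 or J76S1. Rpl19 lost its call in 32 of 62 fits that left out a library, Rpl10 in 2 and Rpl26 in 3. Neither Rpl10, Rpl26 nor Rpl19 passed at any single SD time, the largest difference of Rpl26 being 0.14 at T198 (adjusted p = 0.427, limma).

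During deprivation at T27, 1 of 76 genes passed (16.4% of all genes), and at its end at T30 4 passed, 2 up and 2 down (32.4%). At T36, 6 h after its end, 1 passed (12.5%). Median differences of the family were 0.05, 0.01 and 0.04 at T27, T30 and T36, against −0.01, −0.01 and 0.00 over all genes. SD libraries lay above all control libraries for 10 of 76 genes at T27 (17.3% of all cortex genes), 2 at T30 (16.0%) and 6 at T36 (10.5%), and below for 2 at T30 (17.3%), none of which exceeds the share over all genes. Choroid plexus markers also differed at T27, where 2 of the 3 measured fell, and their part was not tested.

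Rpl7l1 rose at T27 and T30. It had 5.12, 5.13 and 5.09 log2 CPM at T27, against 4.93, 4.94 and 4.84 at ZT3, and 5.12, 5.10 and 5.09 at T30, against 4.78, 4.86, 4.90, 4.86 and 4.94 at ZT6. In both pairs all SD libraries were above all controls, near the levels of undisturbed mice at ZT18. The differences were 0.21 ± 0.05 at T27 (adjusted p = 0.00415) and 0.23 ± 0.05 at T30 (adjusted p = 0.000163, limma), or 1.18-fold at T30. No library decided these calls: the adjusted p reached at most 0.044 at T27 and 0.0018 at T30 when any 1 was left out.

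The other 3 calls at T30 depended on single libraries. Rps10, a small subunit protein ubiquitinated on collided ribosomes in human cells, had 1.05, 1.17 and 1.20 log2 CPM at T30, against 0.68, 0.51, 0.44, 0.91 and 0.66 at ZT6. It rose by 0.50 ± 0.20 (adjusted p = 0.045, limma) without overlap, at a low level, and the call was lost in 7 of 8 fits that left out a library (adjusted p of 0.0561 to 0.126). Rps20, modified on the same collided ribosomes, had 5.46, 5.47 and 5.44 log2 CPM at T30, against 5.63, 5.62, 5.45, 5.62 and 5.57 at ZT6. Its fall of 0.12 ± 0.05 (adjusted p = 0.0448, limma) was likewise lost in 7 of 8, and kept without T6N4 (0.0113), the low ZT6 library. Rpl3 had 7.69, 7.63 and 7.65 log2 CPM at T30, against 7.72, 7.79, 7.72, 7.81 and 7.73 at ZT6. It fell by 0.10 ± 0.04 (adjusted p = 0.0419, limma), and lost the call without T30S3 (0.145), T30S4 (0.121), J76N1 (0.0872) or T6N3 (0.0877). The count at T30 was 1 without T30S4 and 2 without T30S3, T6N2 or J76N2.

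At T36 the called gene was Rpl13a, with 3.62, 3.60 and 3.48 log2 CPM at T36, against 3.25, 3.31, 3.35, 3.46 and 3.33 at ZT12. Groups did not overlap (0.23 ± 0.07, adjusted p = 0.0303, limma), but the call was lost without T36S1 (0.15), T36S2 (0.109), T12N1 (0.0876) or T12N2 (0.062). The count at T27 was 2 without T27S5.

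From T42 on, 0 of 76 genes passed at any time with limma. The background was 1.03% at T42 and 1.49% at T48, and 0 at each later time, where no cortex gene passed. Unadjusted p below 0.05 was reached by 1 gene at T42, 14 at T48, 11 at T54, 6 at T60, 1 at T66, 14 at T72, 1 at T78, 0 at T192 and 25 at T198. Shares of all cortex genes at that unadjusted p, or by sign, are not reported here. Family medians were −0.03, −0.05, 0.04, 0.05, 0.02, −0.05, −0.03, 0.00 and 0.09 at those times. At T60, 74 of 76 differences were positive, and the SD libraries lay above all controls for 12 genes and below for 1 (4.33% and 3.90% of all genes). At T198 69 were positive and 13 lay above (2.34%), none below. Both of those SD groups are in batch 2 alone. Against batch 2 controls alone the medians were 0.08 at T60 and 0.06 at T198, with 20 and 8 genes at an unadjusted p below 0.05. With the transcript length index, defined above for liver, as a covariate the T60 median was 0.00, with 40 differences positive, and the T198 median 0.05, with 57 positive and 6 genes at an unadjusted p below 0.05. The part of the index was not tested. At T54 the family mean was 5.90 log2 CPM in the library T54S1 and 5.70 in each of T54S2 and T54S4. Without T54S4 13 genes were called there, without the ZT6 libraries T6N3 or J76N1 8 and 3, and without T54S1 none, with a median of −0.03. Smallest in p were Rpl36a at T42 (−0.14, adjusted p = 0.312), Rpl29 at T48 (−0.19, 0.128), Rpl41 at T54 (0.19, 0.315), Rps27l at T60 (0.25, 0.55), Rpl23a at T66 (0.11, 0.466), Rpl11 at T72 (−0.11, 0.522), Rpl22 at T78 (−0.09, 0.896), Rpl39 at T192 (0.15, 0.773) and Rps18 at T198 (0.16, 0.427, limma).

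**Figure D4:**
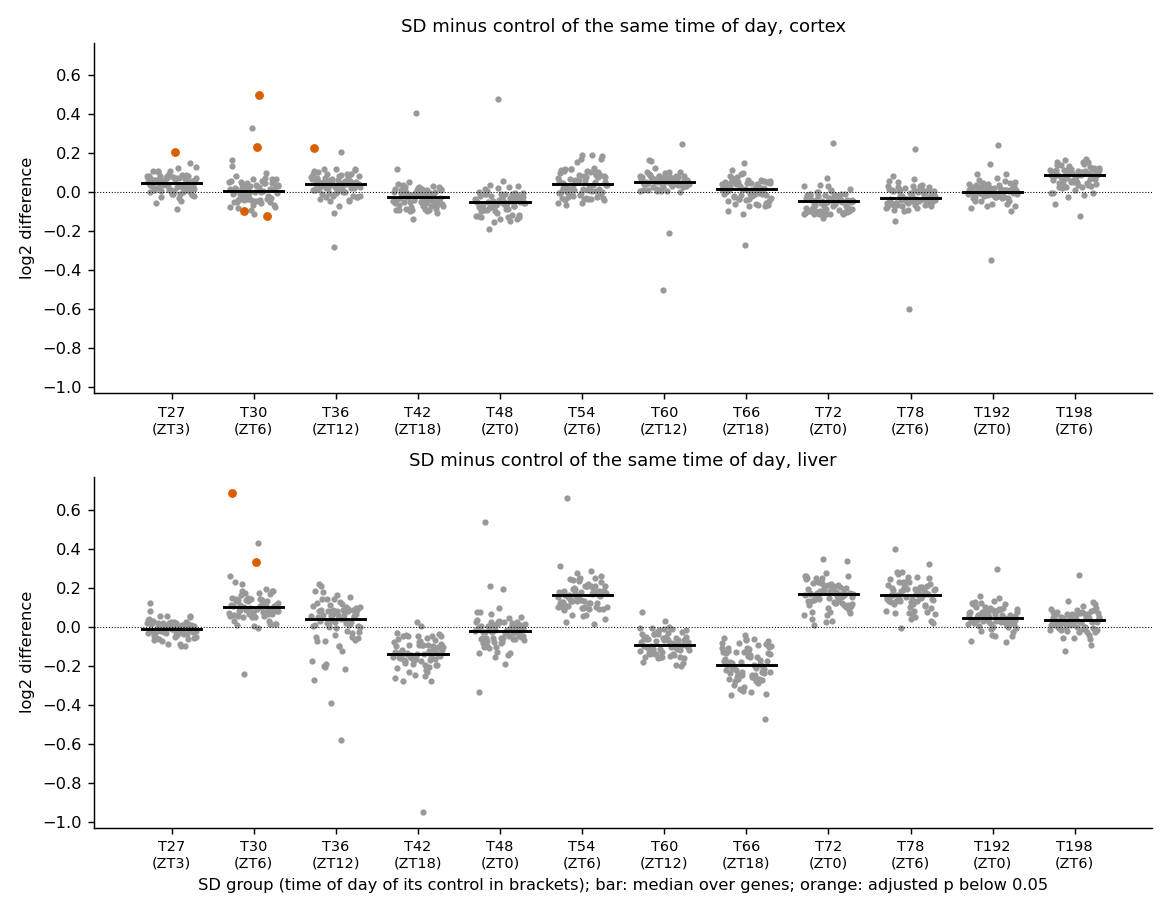
Log2 difference (vertical axis) between each SD group and the control of the same time of day (in brackets) for every ribosomal protein gene in cortex (top, 76 genes) and liver (bottom, 75 genes); bars are medians and orange marks an adjusted p below 0.05. In cortex 1, 4 and 1 genes are orange at T27, T30 and T36, and in liver 2 at T30.

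In liver, deprivation raised 2 of the 75 genes at T30 (15.8% of all liver genes were called) and no other time had a call, apart from 1 gene at T36 without T36S4. The 2 were Rpl13a and Rpl7l1. Rpl13a had 3.59, 3.09 and 2.80 log2 CPM at T30, against 2.12, 2.68, 2.59, 2.38 and 2.52 at ZT6, groups that did not overlap (0.69 ± 0.17, adjusted p = 0.00505, limma), or 1.61-fold. Rpl7l1 had 6.12, 5.86 and 6.02 log2 CPM at T30, against 5.78, 5.70, 5.66, 5.67 and 5.77 at ZT6, also apart (0.33 ± 0.09, adjusted p = 0.0112, limma). Both calls were lost without the T30 library T30S1 (0.47, adjusted p = 0.137, and 0.27, adjusted p = 0.125), which left 0 genes called, and without J76N2 3 were called. In batch 1 alone Rpl13a was called and Rpl7l1 was not (adjusted p = 0.0605). The 2 genes are among those that rose at ZT18 against ZT6 in undisturbed mice, and those comparisons share the ZT6 controls.

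**Figure D5:**
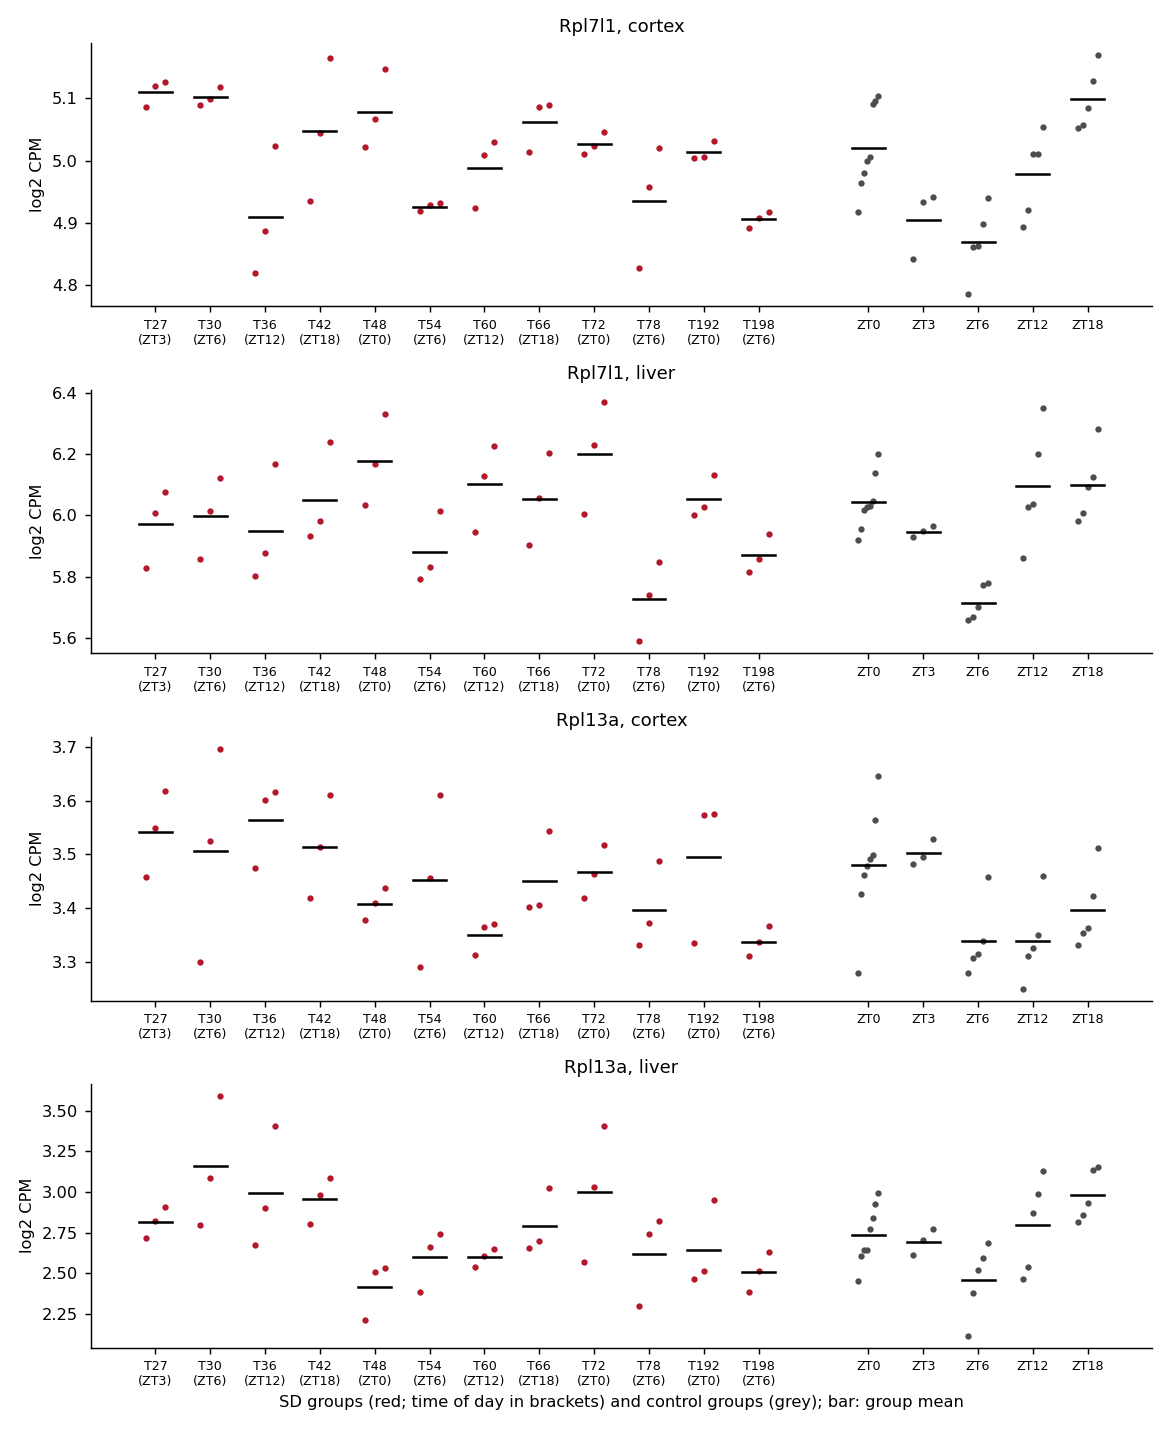
Log2 CPM (vertical axis, scales differ) of Rpl7l1 and Rpl13a in each library of cortex and liver, with SD groups in red at the left and control groups in grey at the right; a dot is a library and a bar the group mean. In cortex the T27 and T30 libraries of Rpl7l1 (5.09 to 5.13) lie above the ZT3 and ZT6 controls (4.78 to 4.94), and in liver the T30 libraries of Rpl13a (2.80 to 3.59) lie above the ZT6 controls (2.12 to 2.68).

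Apart from Rpl13a and Rpl7l1, no member was called at T30 in liver. Over the family the median was 0.10, with 73 of 75 differences positive. When 1 library was left out, the median ran from 0.02 to 0.16. Family means were 6.76, 6.49 and 6.56 log2 CPM in T30S1, T30S3 and T30S4, against 6.42 to 6.56 at ZT6. The share of all liver genes with a positive difference is not reported here. Rpl3 had 7.53, 7.61 and 7.67 log2 CPM at T30, against 7.92, 7.72, 7.91, 7.78 and 7.93 at ZT6. All SD libraries were below all controls, but the difference of −0.24 ± 0.09 did not pass (adjusted p = 0.0569, limma). Nor did Rpl10a (0.26, adjusted p = 0.0536). Whether the T30 effect was unequal between cortex and liver was tested for all 75. None passed with limma, where 12.2% of shared genes passed at the adjusted threshold. An unadjusted p below 0.05 was reached by 3, a count with no share over all genes beside it. Rpl13a came closest (−0.52 ± 0.19, cortex minus liver, adjusted p = 0.0584, limma). At T27, T36 and T42 none of the 75 passed that test either, where 2.12%, 4.55% and 0% of shared genes passed at the adjusted threshold. There 0, 5 and 2 of the 75 had an unadjusted p below 0.05, again without a share over all genes.

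Over all SD times 0 of 75 liver genes passed the limma F test (10.7% of all genes), with 4 at an unadjusted p below 0.05 and Rpl22l1 closest (adjusted p = 0.0508). At the single times other than T30 none passed with limma, where the background was 1.50% at T27, 3.16% at T36, 0% at T42, 0.0150% at T48 and 0 later. Unadjusted p below 0.05 was reached by 0 genes at T27, 3 at T36, 3 at T42, 4 at T48, 9 at T54, 0 at T60, 23 at T66, 11 at T72, 7 at T78, and 0 at T192 and T198. Shares of all liver genes at that unadjusted p, or by sign, are not reported here. At several of these times nearly all genes shared a sign without a call for any. Positive differences were found for 75 of 75 genes at T54 (median 0.16), 75 at T72 (0.17) and 74 at T78 (0.16), and for 2 at T42 (−0.14), 2 at T60 (−0.09) and 0 at T66 (−0.20). Medians of other genes in the 5 classes of transcript length ran from −0.02 to 0.03 at T54 and from −0.02 to 0.12 at T66. At T78 the SD libraries were above all controls for 41 genes (5.89% of all liver genes) and at T66 below for 15 (2.77%). With the transcript length index as a covariate the medians were 0.07, 0.04 and 0.05 at T54, T72 and T78 and −0.04, 0.00 and −0.01 at T42, T60 and T66. Without T54S4 the T54 median was 0.07. The mean over the family had a within-group SD of 0.13 in liver, close to the 0.15 of a typical single gene, so that the genes of a library moved together.

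Family means differed between libraries of one liver group. At T72 they were 6.45, 6.73 and 6.91 log2 CPM, with length indices from −0.09 to 0.17, against 6.37 to 6.60 at ZT0. At T66 they were 6.43, 6.46 and 6.62, against 6.58 to 6.89 at ZT18, and at T54 6.49, 6.65 and 6.83, against 6.42 to 6.56 at ZT6. The midnight minus midday difference on the second recovery day (T66 minus T54) was compared with that of controls (ZT18 minus ZT6), a test added after the data were seen. With its sign, the difference was lower on that day for all 75 genes (median change −0.34). The middle library had a family mean of 6.46 at T66 and 6.65 at T54, opposite to the direction in controls. No gene passed with limma, and 0% of all liver genes were called. Unadjusted p below 0.05 was reached by 46, a count with no share over all genes beside it. Smallest in p were Rps15a (−0.53 ± 0.13) and Rpl22l1 (−1.01 ± 0.25, both adjusted p = 0.187, limma). With the transcript length index as a covariate the median was −0.09 and 5 genes had an unadjusted p below 0.05. T66 is in batch 2 and T54 in batch 1, so batch enters this comparison. In cortex the same comparison gave a median of −0.02 and no call with limma, with 0% of all genes called. There 7 genes had an unadjusted p below 0.05, again without a share over all genes. It gave 9 calls without T54S4.

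Single liver genes with the smallest p at times without a call were Rpl22 at T27 (−0.06, adjusted p = 0.859), Rpl21 at T36 (0.22, 0.18), Rps10 at T42 (−0.95, 0.324), Rpl22l1 at T48 (0.54, 0.181) and at T54 (0.66, 0.14, limma). Later they were Rps27 at T60 (−0.20, adjusted p = 1), Rps28 at T66 (−0.47, 0.445), Rpl10a at T72 (0.26, 0.734), Rpl23a at T78 (0.28, 0.505), Rpl7 at T192 (0.13, 1) and Rps3a1 at T198 (0.11, 0.997, limma).

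Paralogs with restricted roles were read one by one. Rpl22l1, the paralog that Rpl22 holds down, had 5.02, 4.63 and 5.04 log2 CPM at T48 in liver, against 4.10 to 4.62 in the 8 ZT0 controls, and 4.70, 4.80 and 5.42 at T54, against 4.57, 4.51, 4.40, 3.83 and 4.53 at ZT6. The SD libraries were above every control at both times, with differences of 0.54 ± 0.16 and 0.66 ± 0.17 that did not pass. It was the only one of the 75 highest at ZT3 in liver (4.81 ± 0.06, n = 3) and changed over the day (adjusted p = 0.0322, limma F test), a call lost in 4 of 26 fits that left out a library, while at ZT18 against ZT6 it did not pass (0.34, adjusted p = 0.0669). In cortex it averaged 4.47 log2 CPM at ZT18 and 4.61 at ZT6 (adjusted p = 0.0928, limma). Rps27l, a p53 target related to Rps27, averaged 2.20 log2 CPM over all cortex libraries and 6.50 over all liver libraries. In liver it rose at ZT18 (6.94, 6.42, 6.91, 6.58 and 6.70) against ZT6 (mean 6.38), by 0.33 ± 0.11 with overlap (adjusted p = 0.0158, limma). In cortex no time or SD test was passed. Rpl3l, the paralog of Rpl3 known from heart and skeletal muscle, averaged −1.77 log2 CPM in cortex, with a within-group SD of 0.41, and changed in no comparison there.

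Patterns most like those of Rpl22l1 and Rps27l were sought within the family, over the means of the 17 groups, as a description. For Rpl22l1 they were Rpl9 (Pearson r = 0.79), Rpl38 (0.78) and Rpl23 (0.77) in cortex, against Rpl31 (0.57), Rps12 (0.56) and Rpl39 (0.55) in liver. For Rps27l they were Rpl23a (0.68), Rps2 (0.66) and Rpl27 (0.64) in cortex, against Rps19 (0.89), Rpl36a (0.89) and Rpl38 (0.88) in liver. The points share libraries and, in liver, the shift of the whole family between libraries.

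Genes of the same pathway were read beside the family. Of all liver genes, 15.9% rose and 15.1% fell at ZT18 against ZT6, and 16.0% rose at ZT12 against ZT0. Ribosomal proteins whose names fall outside the pattern, such as Rplp0, Rplp1, Rplp2, Rpsa and Rack1, rose in liver too: 6 of 8 rose and none fell at ZT18 against ZT6 (median 0.29), among them the stalk proteins Rplp1 (0.46, adjusted p = 0.00258) and Rplp2 (0.43, adjusted p = 0.00624, limma). At ZT12 against ZT0 3 rose. Other TOP mRNAs encode translation factors and the like. Of 24 in liver, 18 rose and none fell at ZT12 against ZT0 (median 0.21), led by Npm1 (0.39, adjusted p = 6.41e-06), Eif3h (0.22, adjusted p = 0.000619) and Eif4a1 (0.34, adjusted p = 0.000782, limma). At ZT18 against ZT6, 4 rose and 3 fell (median −0.03), with the initiation factor Eif4b down (−0.68, adjusted p = 2.6e-08) and the elongation factor Eef1g up (0.35, adjusted p = 7.32e-05, limma).

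Genes for ribosomal DNA transcription and ribosome assembly rose at dusk in liver, where 16.0% of all genes rose at ZT12 against ZT0. At ZT12 against ZT0, 14 of 20 rose and 1 fell (median 0.43), with nucleolin (Ncl, 0.63, adjusted p = 2.64e-10), the polymerase I subunit Polr1a (0.49, adjusted p = 0.000121) and the box C/D protein Nop56 (0.75, adjusted p = 0.000254, limma). At T30 against ZT6, 9 of 20 rose and none fell (median 0.44), where 7.84% of all genes rose. These included Rrn3, the polymerase I initiation factor (1.30 ± 0.25, adjusted p = 0.000296), the rRNA methyltransferase Nop2 (0.85 ± 0.18, adjusted p = 0.00076) and Nob1, which trims 18S rRNA (0.65 ± 0.15, adjusted p = 0.00197, limma), while 2 of 75 ribosomal protein genes rose in the same libraries. Among 17 regulators of TOP translation and mTORC1, 2 rose and 6 fell at ZT18 against ZT6 in liver (15.9% and 15.1% of all genes), with the kinase Mtor down (−0.81, adjusted p = 3.04e-11) and its inhibitor Ddit4 up (2.39, adjusted p = 1.26e-08, limma). Factors of ribosomal protein promoters fell for 2 of 6 there, Yy1 (−0.32, adjusted p = 0.00179) and Gabpa (−0.22, adjusted p = 0.0489, limma).

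In cortex the same lists were read at the end of deprivation, when 15.7% of all genes rose and 16.8% fell. At T30, 5 of 17 regulators rose and none fell, including Eif4ebp2, the brain form of the 4E-binding proteins (0.38 ± 0.05, adjusted p = 8.02e-09), the mTORC1 activator Rheb (0.23, adjusted p = 0.000868) and Larp1 (0.13, adjusted p = 0.00179, limma). Of 6 promoter factors 4 rose, Zbtb7a (0.29), Gabpb1 (0.26), Gabpa (0.25) and Yy1 (0.14), and of 20 assembly genes 5 rose, among them Bysl (0.31), Nop2 (0.24), Wdr12 (0.22) and the polymerase I factor Ubtf (0.22), all at adjusted p of 0.00354 or less (limma). Other TOP mRNAs were split, with 4 of 25 up and 4 down, such as Tpt1 (0.21, adjusted p = 0.000308) and Eif4b (−0.20, adjusted p = 2.11e-06, limma). Whether these shares differ from that of the ribosomal protein genes or of all genes was not tested. At T27 and T36, 8.59% and 6.90% of all genes rose. At T27, 2 regulators, 2 promoter factors, 4 assembly genes and 4 TOP mRNAs rose and 1 TOP mRNA fell, and at T36 4 regulators, 3 assembly genes and 2 TOP mRNAs rose and 2, 1 and 1 fell.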

How the data were processed

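RNA of cortex and liver from 62 mice was sequenced, and the authors deposited 1 table a tissue of log2 CPM values, not counts, per gene and library. Fastp, STAR 2.7.0e, edgeR and the GRCm38 (mm10) build are named in the submitters' processing notes, without settings. Cortex values as deposited had 1 dimension removed, matching the batch label within groups, and liver values 2, matching an unlabelled factor (50, 8 and 4 libraries), so liver p-values that ignore it are too small. Depth is unknown. No source used here says how reads shared with pseudogenes were counted. Entries without a gene name (77 in cortex, 35 in liver; 0.0618% and 0.0337% of CPM) were left out.

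Each tissue was fitted once with limma 3.58.1 in R 4.3.3 (17 groups plus batch, 44 residual degrees of freedom, trended variances, two-sided), with Benjamini-Hochberg adjustment over all named genes and a threshold of 0.05. Tissue differences used 1 fit of both tissues (12194 genes, 88 degrees of freedom). Counts at an unadjusted p below 0.05 were made for the family only, while shares of all genes called are at the adjusted threshold. The fits were also run on simulated data with noise independent between genes. That setting lacks the shared shift of a library's genes seen in liver, so it cannot speak to that shift. Replicates are separate mice, and both tissues come from the same mice: the member deviations of a mouse's tissues had a median correlation of 0.0725, positive in 36 of 62, and the mouse was used as a block in an alternative. No library repeated another: replicate pairs differed by root mean squares of at least 0.23 in cortex and 0.329 in liver.

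Members, gene lists and tests were chosen with earlier results of these data known. Genes were named by rule: up to 8 called in each direction at a time, the 3 with the smallest p where none was called (the first of them in the text), a preset set of well-known members and paralogs, and up to 4 of each other list by smallest p. Some genes the rule names are counted but not reported here by name. Alternatives were centring, log2(CPM + 1), leaving out the lowest 20% of genes, no batch term, 1 batch alone, the removed liver factor, the transcript length index (other genes with a mean log2 CPM above 4) and each library left out; the index, the batch 2 values and the second-day comparison were added after seeing the data. Tables were handled with Python 3.11.15 and pandas 2.3.3, and transcript lengths and overlaps came from the GRCm38 annotation.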

Additional observations from a re-analysis of the deposited data

Results flagged for a closer look

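Time of day had a different pattern in cortex than in liver for 46 of 75 genes, a difference tested by itself, in which 48.6% of all shared genes passed. With each mouse as a replicate block the count was 30 of 75. Of 288 values of a named gene in a control group, 11 had a library standing apart from the others of its group, and chance marks about 1 in 20. In cortex these were Rpl22l1 at ZT18 (T18N3 lowest, 4.27 log2 CPM), Rpl39 (4.84) and Rpl5 (6.69) at ZT0, both highest in T0N3, Rps27a at ZT12 (T12N4 highest, 6.43), and Rps27l at ZT0 (T0N1 lowest, 2.03) and at ZT6 (T6N2 highest, 2.36). In liver they were Rpl22l1 at ZT6 (T6N3 lowest, 3.83), Rpl3 at ZT12 (T12N6 highest, 8.21), Rpl36 at ZT6 (J76N2 lowest, 4.81), Rpl41 at ZT0 (J70N2 highest, 7.43) and Rps6 at ZT6 (T6N2 highest, 6.59).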

How the results depend on the processing

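Counts of called genes are given per alternative where they moved by over 1.5 times, with the cause not tested. They are counts of the family only, and shares of all genes called under each alternative are not reported here. With the transcript length index as covariate, cortex had 5 genes over the day (2 in the fit reported), 3 at ZT12 against ZT0 (1), 4 at ZT18 against ZT6 (2) and 7 at T30 (4), and liver had 13 over the day (49), 4 at ZT18 against ZT6 (53), 3 at any SD time (0), 5 at T30 (2) and 7, all down, at T36 (0). In batch 1 alone, cortex had 1 over the day, 1 at ZT18 against ZT6 and 2 at T30, and liver 0 over the day, 0 at ZT12 against ZT0, 5 at ZT18 against ZT6 and 1 at T30. This leaves fewer mice. In batch 2 alone, ZT18 against ZT6 gave 0 in cortex and 9 in liver. With the removed liver factor there were 23 over the day and 12 at ZT12 against ZT0 (21). Without the batch term there were 15 in cortex and 3 in liver at any SD time and 4 in liver at T30. Centring gave 1 at ZT18 against ZT6 in cortex and 1 at any SD time in liver, as did leaving out the lowest 20% of genes for the second, and log2(CPM + 1) gave 0 at ZT12 against ZT0 in cortex. With the mouse as replicate block, pairing each mouse's tissues, 30 genes differed between tissues over the day (46), and no other tissue call changed. Leaving out 1 library gave in cortex 1 to 4 over the day, 0 to 2 at ZT12 against ZT0, 1 to 4 at ZT18 against ZT6, 1 to 12 at any SD time, 1 to 2 at T27, 1 to 5 at T30, 0 to 1 at T36, 0 to 13 at T54 and 0 to 9 for the second-day change. In liver it gave 24 to 59 over the day, 5 to 37 at ZT12 against ZT0, 25 to 61 at ZT18 against ZT6, 0 to 2 at any SD time, 0 to 3 at T30 and 0 to 1 at T36. No called difference changed sign under any alternative run. SD at any time was not run within 1 batch, nor was the second-day change, whose groups lie in different batches. Depth is unknown, so no limit on low genes such as Rps10 can be given.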

Other observations

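Other groups of genes with mostly short transcripts were counted in liver, by name and after the values were seen. Of all liver genes, 15.9% rose and 15.1% fell at ZT18 against ZT6, and 16.0% rose at ZT12 against ZT0. At ZT18 against ZT6, 48 of 76 genes of the respiratory chain and ATP synthase rose and 1 fell (median 0.28), and at ZT12 against ZT0 23 rose and none fell (median 0.18). Of 77 mitochondrial ribosomal protein genes, whose products build the separate ribosomes inside mitochondria, 24 rose and 1 fell at ZT18 against ZT6 (median 0.16), and 16 rose and 3 fell at ZT12 against ZT0 (median 0.11). In cortex, 14 of 77 mitochondrial ribosomal protein genes rose and 6 fell at ZT18 against ZT6 (median 0.00), and 16 rose and 6 fell at T30 against ZT6 (median 0.03). Of all cortex genes, 30.7% were called in either direction at ZT18 against ZT6. At T30, 15.7% of them rose and 16.8% fell. All counts are at an adjusted p below 0.05 over all named genes (limma).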
